A study of Homo sapiens and synthetic construct with 52 samples.

Results

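The report follows the core proteins of the spliceosomal small nuclear ribonucleoproteins (snRNPs) through the CRISPR interference screens of the series. Its members are the guides whose gene name, the start of the guide's name, is on a list of 48 snRNP genes. Guides were found for 47 of these genes, 248 guides in all at 50 annotated promoters, out of 103074 guides, 20374 promoters and 18788 genes in the library. The genes fall into the Sm ring (7 genes, 35 guides), the LSM ring (6 genes, 35 guides), U1 (3 genes, 15 guides), U2 (10 genes, 59 guides), the U2 auxiliary factor U2AF (2 genes, 10 guides), the U4/U6.U5 tri-snRNP (10 genes, 50 guides), the U11/U12 di-snRNP of the minor spliceosome (3 genes, 14 guides) and the Prp19 complex (6 genes, 30 guides). No guide carried the name LSM8.

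All screens were run in pooled K562 cells, a chronic myeloid leukemia line, that carry dCas9 fused to the KRAB repressor, so every arm shares the repressor and puromycin selection. The LGR library, a recloned version of the CRISPRi library with 5 guides per promoter, was screened for survival at 1000-fold cell coverage (3 Tf samples and 1 T0 sample) and at 100-fold coverage (4 Tf and 2 T0 samples), where Tf was taken after a further week of culture. In the dasatinib screens, LGR and the older distributed library (legacy) were each transduced once at 100-fold coverage. Each was sampled at T0 about a week after infection and split. Each library thus had 2 samples treated with 0.75 nM dasatinib for 72 h, 2 samples given 0.01% DMSO and 2 T0 samples (A and B). By the paper's methods, several days of growth without drug followed the treatment, so dasatinib and DMSO samples were taken after recovery. A titration gave 2 samples per library at 10-, 50-, 100- and 200-fold coverage, and 1 plasmid sample per library was used (a second LGR plasmid file numbers its guides without names and was not used). The split samples are technical replicates of 1 transduction, so the edgeR p-values below measure only the spread between these samples. The Mann-Whitney p-values of promoters below compare guides after averaging over samples, so they do not measure that spread. Total counts ran between 15739255 and 170431221 over the files, with 15739255 to 19844033 in each dasatinib-screen sample and 47678549 to 111002750 in each survival-screen sample. Over guides, log2 CPM of replicate samples correlated at r = 0.653 between the LGR dasatinib samples and 0.822 between the legacy ones, against 0.887 and 0.933 for DMSO and 0.974 to 0.976 for the Tf samples at 1000-fold coverage.

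The spliceosome removes introns in steps. U1 pairs with the 5′ splice site, U2AF and U2 mark the 3′ splice site and branch point, and the tri-snRNP then joins and is remodelled, with the Prp19 complex, into the catalytic form. A ring of Sm proteins holds the U1, U2, U4 and U5 RNAs, a ring of LSM proteins holds the end of U6 RNA, and the U11/U12 particle does the work of U1 and U2 on a small class of minor introns. CRISPRi lowers transcription of a gene by placing a repressor at its start, and a guide that slows growth becomes rarer in the culture.

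Because CRISPRi acts at the start site, 3 promoters are shown, those of the genes with the lowest survival score at 1000-fold coverage (SNRPF), the lowest score at T0 of the dasatinib screens (SF3A2) and the highest score with dasatinib in both libraries (LSM2). The scored guides of LSM2 reached the required mean of 50 counts only with dasatinib. With that minimum set on T0 samples, LSM2 was not the highest in either library. The 3 sequences are RefSeq sequences of the GRCh38.p14 build, each the 250 bases before and 50 bases after the annotated start, read 5′ to 3′ on the gene's strand. Capitals mark matches to the NFY motif CCAAT or the ETS motif CCGGAAG on either strand.
SNRPF, chr12:95858702-95859001, plus strand: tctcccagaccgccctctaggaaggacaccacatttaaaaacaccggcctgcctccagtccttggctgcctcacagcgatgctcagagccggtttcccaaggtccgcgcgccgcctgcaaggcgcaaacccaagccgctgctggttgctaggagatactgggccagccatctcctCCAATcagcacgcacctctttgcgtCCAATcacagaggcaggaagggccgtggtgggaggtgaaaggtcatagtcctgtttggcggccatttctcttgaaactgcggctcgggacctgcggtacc
SF3A2, chr19:2236574-2236873, plus strand: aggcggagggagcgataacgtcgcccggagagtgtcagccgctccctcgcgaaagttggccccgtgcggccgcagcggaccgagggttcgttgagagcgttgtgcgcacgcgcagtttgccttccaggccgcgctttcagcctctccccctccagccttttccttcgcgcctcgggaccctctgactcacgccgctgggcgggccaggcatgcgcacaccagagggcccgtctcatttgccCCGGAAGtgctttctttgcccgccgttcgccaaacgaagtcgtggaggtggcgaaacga
LSM2, chr6:31806917-31807216, minus strand: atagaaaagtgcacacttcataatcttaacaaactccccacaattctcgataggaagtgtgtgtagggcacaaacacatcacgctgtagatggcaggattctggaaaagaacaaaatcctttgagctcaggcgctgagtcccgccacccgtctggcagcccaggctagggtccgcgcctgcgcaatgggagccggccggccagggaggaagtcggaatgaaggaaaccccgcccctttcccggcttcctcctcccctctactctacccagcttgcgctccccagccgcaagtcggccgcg
SNRPF held 2 CCAAT matches, SF3A2 held 1 CCGGAAG match and LSM2 held neither. RefSeq promoters of this length were matched for 42 of the 47 genes. CCGGAAG was in 19 of them (45.2%), against 10.7% of all 27305 promoters, and CCAAT was in 18 (42.9%), against 35.7%. The YY1 motif AAGATGGCG was in 3 (7.1%), against 1.8%, the NRF1 motif in 1 (2.4%), against 1.4%, and the TATA box TATAAA in 1 (2.4%, SNRPC), against 3264 of all 27305 promoters. GC content had a median of 60% in the 42 promoters and 58.3% in all, and a match is only a match of letters.

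In the survival screens, guides against most snRNP genes were depleted by Tf. The phenotype score used here is the log2 enrichment of Tf over T0, averaged over the 3 guides of a promoter with the largest absolute value after subtraction of the median of the non-targeting guides. Each promoter's guides were set against 1895 non-targeting guides with an exact two-sided Mann-Whitney test, adjusted over all promoters, and the units of that test are guides. At 1000-fold coverage 39 of the 50 promoters were called lower, beside 7.19% of all promoters, and none was called higher, beside 0.118%. Single guides, tested with edgeR across the library, were lower for 188 of 248, beside 9.07% of all guides, and none was higher, beside 1.08%. This screen has 1 T0 sample, so its test takes T0 to vary like the Tf samples, and the tests against a plasmid sample below do the same. The members' median score was -4.77, against -0.05 for all promoters. At 100-fold coverage 39 of 50 promoters (6.6% of all) and 170 of 248 guides (5.68% of all) were lower, with median scores of -5.33 and -0.10, and none was higher (0.0638% of all promoters and 0.0437% of all guides). Together the members' guides made up 0.0753% to 0.0761% of counts in the 3 Tf samples, against 0.199% in the T0 sample, at 1000-fold coverage.

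**Figure D1:**
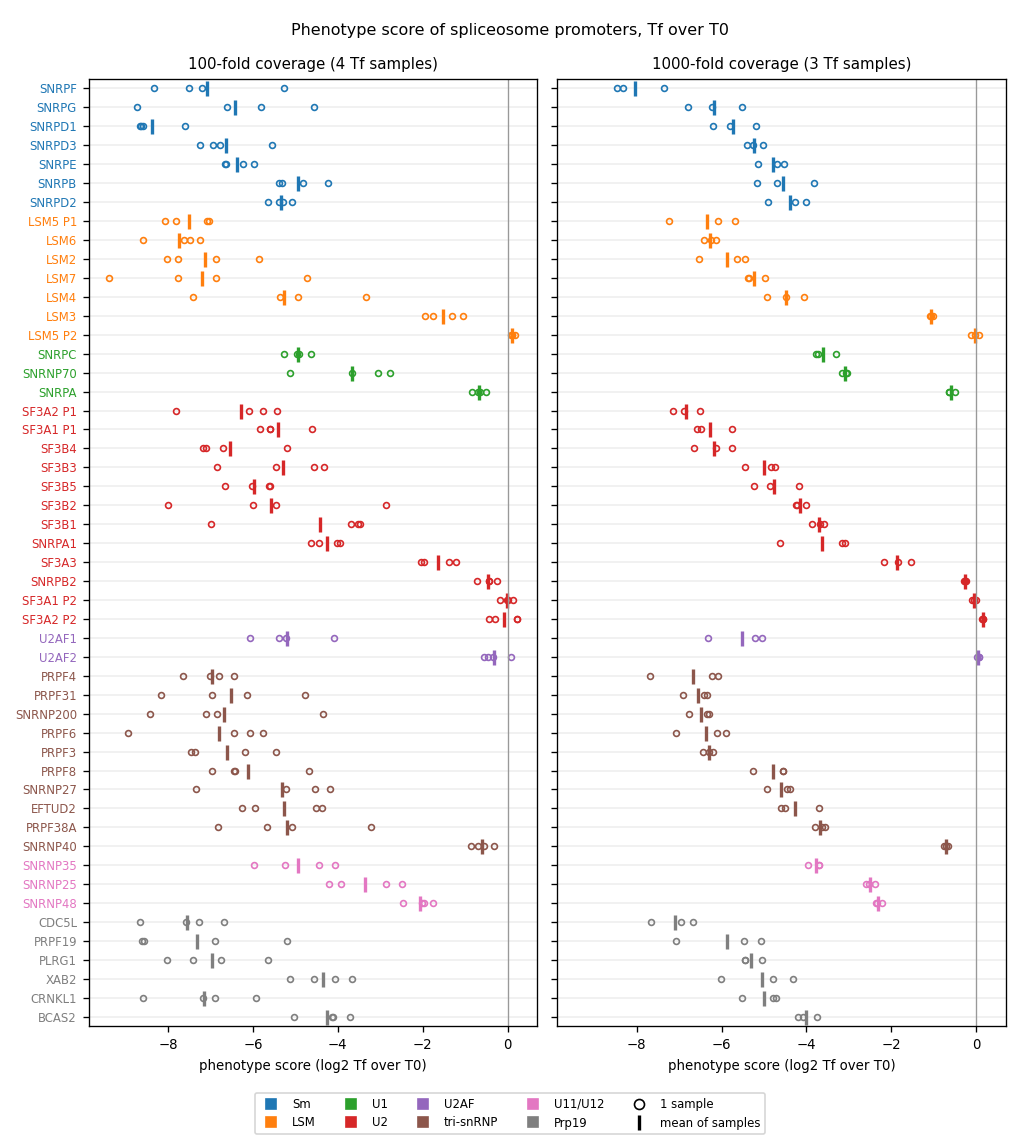
Phenotype score (log2 Tf over T0) of the 50 promoters, grouped by particle and ordered by the 1000-fold score, at 100-fold (left) and 1000-fold coverage (right). Circles are single Tf samples and bars their mean; 48 of 50 promoters lie below 0 at 1000-fold coverage, and genes with a second annotated promoter are marked P1 and P2.

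In the Sm ring 6 of 7 promoters were called lower. The 7 scores at 1000-fold coverage lay between -8.04 and -4.40 with a median of -5.23, and 31 of 35 guides were lower. SNRPF, which codes for SmF, had 2.64, 2.396 and 2.25 CPM (read counts scaled to equal library totals) over its 5 guides in the Tf samples, against 29.7 CPM at T0. Its scores were -8.46, -8.32 and -7.36 in the 3 samples, a mean of -8.04 ± 0.60 (SD, n = 3), and no sample came near the T0 level. One of its 3 strongest guides had no count in any Tf sample, so this score depends on the lowest count allowed. It was -7.10 when counts below 3 were set to 3, a setting chosen after seeing the data, under which SF3A1 at its first promoter, with a like guide, had -5.39. SNRPD2, which codes for SmD2, had a score of -4.40 ± 0.45 (SD, n = 3), yet the adjusted p of its exact Mann-Whitney test was 0.486. Only 2 of its 5 guides were lower. The guide at hg19 position 46195138 on chromosome 19 had 0, 0 and 6 counts at Tf, against 614 at T0, whereas the guide at 46195502 had 1107, 1059 and 1034 counts, against 968 at T0.

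In the LSM ring all 6 genes were called lower at a promoter, and 1 of them had a much smaller score. Its median was -5.24, with 24 of 35 guides lower. LSM5 at its first promoter had scores of -7.24, -6.08 and -5.68, a mean of -6.33 ± 0.81 (SD, n = 3), and LSM6 followed at -6.27 ± 0.14 and LSM2 at -5.87 ± 0.57. LSM3 was called lower as well, but with a score of -1.05 ± 0.04 and 2 of 5 guides. LSM2 to LSM7 also serve in a cytoplasmic ring that acts in mRNA decay, and the counts do not separate the roles.

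U1 proteins had smaller scores. SNRPC, which codes for the U1 C protein and steadies U1 at the 5′ splice site, had 12.4, 12.5 and 12.8 CPM at Tf, against 32.7 CPM at T0, and a score of -3.60 ± 0.26 (SD, n = 3). SNRNP70, the gene of U1-70K, had -3.09 ± 0.07 with 4 of 5 guides lower. SNRPA, the gene of the U1 A protein, had -0.60 ± 0.08 with 1 of 5 guides lower and was called in none of the growth comparisons (adjusted p = 0.865 by the exact Mann-Whitney test).

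U2 promoters had scores between -6.84 and 0.15 at 1000-fold coverage, with a median of -3.93 over 12 promoters, of which 8 were lower. The 12 include the second promoters of SF3A1 and SF3A2, neither of them called, and the score of 0.15 was that of SF3A2's second promoter. SF3A2, a subunit of the SF3a complex, had 0.975, 0.623 and 0.910 CPM at its first promoter in the Tf samples, against 22.2 CPM at T0, and a score of -6.84 ± 0.32 (SD, n = 3). SF3A1 at its first promoter had -6.27 ± 0.46 and SF3B4 -6.18 ± 0.45. SF3B1, which contacts the branch point, had -3.71 ± 0.14. SNRPB2, the gene of U2B″, had 36.6, 35.9 and 37.9 CPM at Tf, against 38.8 CPM at T0, and a score of -0.26 ± 0.01 with no guide lower. SF3A3 was not called either, at -1.86 ± 0.31 with 2 of 5 guides lower.

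In U2AF the 2 genes stood apart. U2AF1, whose protein reads the AG at the 3′ splice site, had a score of -5.53 ± 0.69 (SD, n = 3), and U2AF2, whose protein binds the polypyrimidine tract, had 0.04 ± 0.03. U2AF2 had 53.9, 56.5 and 56.1 CPM at Tf, against 52.4 CPM at T0, with none of 5 guides lower. Of the U2AF1 guides, those at hg19 positions 44527620, 44527626 and 44527641 on chromosome 21 were lower, the second with 12, 9 and 11 counts at Tf against 740 at T0. The guides at 44527650 and 44527659 were not, with log2 changes of -0.12 ± 0.14 and -0.08 ± 0.12 (SE, edgeR). At 100-fold coverage U2AF1 scored -5.19 ± 0.82 (SD, n = 4) and was not called (adjusted p = 0.142 by the exact Mann-Whitney test).

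The tri-snRNP had a median of -5.54 at 1000-fold coverage, with 9 of 10 promoters and 42 of 50 guides lower. PRPF4, a U4/U6 protein, had 2.42, 1.92 and 1.78 CPM at Tf, against 35.9 CPM at T0, and a score of -6.67 ± 0.88 (SD, n = 3). PRPF31 (-6.55 ± 0.30), which binds the U4 and U6 particle, SNRNP200 (-6.47 ± 0.26), the helicase that unwinds U4 from U6, PRPF6 (-6.36 ± 0.62), a U5 bridging protein, and PRPF3 (-6.30 ± 0.12) lay close to it. PRPF8, the scaffold of the catalytic centre, had -4.78 ± 0.40 and EFTUD2, the U5 GTPase, -4.27 ± 0.50. SNRNP40, a WD-repeat protein of U5, was called lower with a score of only -0.71 ± 0.05.

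All 6 Prp19 complex promoters were called lower, with 29 of 30 guides. CDC5L had 3.397, 4.53 and 4.08 CPM at Tf, against 48.9 CPM at T0, and a score of -7.10 ± 0.51 (SD, n = 3), while BCAS2 had the highest score of the group at -4.00 ± 0.23. The U11/U12 proteins had a median of -2.50 at 1000-fold coverage. SNRNP35 was called, at -3.79 ± 0.15. SNRNP48 (-2.31 ± 0.08, adjusted p = 0.0669 by the exact Mann-Whitney test) and SNRNP25 (-2.50 ± 0.11, adjusted p = 0.707) were not, although 4 of 5 and 2 of 4 of their guides were lower.

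Of the 47 genes, 3 had guides at a second annotated promoter, and no guide at a second promoter was lower. Guides to the second promoter of SF3A2, 6567 bases from the first in hg19, scored 0.15 ± 0.01 (SD, n = 3) and had 51.4, 50.5 and 51.0 CPM at Tf, against 44.7 CPM at T0. The second promoter of SF3A1, 16081 bases away, scored -0.05 ± 0.04, and that of LSM5, 4651 bases away, scored -0.03 ± 0.10. At the first promoters 5 of 5 guides of SF3A2, 4 of 4 of SF3A1 and 4 of 5 of LSM5 were lower. Neighbouring genes on the opposite strand start within 1000 bases of several members and share the region that the repressor covers. Among these, CDC26 beside PRPF4 scored -4.63 and was called (adjusted p = 0.0376, exact Mann-Whitney test), CCDC157 beside SF3A1 scored -5.64 and was not (adjusted p = 0.158), and AVL9 beside LSM5 scored -0.19.

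Coverage made no difference that passed the test. In the edgeR contrast of the Tf over T0 change at 100-fold minus that at 1000-fold coverage, none of 248 member guides was called, and neither was any of all 103002 guides (0.0% in either direction). At an unadjusted p under 0.05, 15 member guides were lower and 3 higher at 100-fold coverage. The share of all guides at that threshold was not taken, so these counts cannot be set against the library. The 4 Tf samples at 100-fold coverage had median member scores of -5.37, -5.22, -5.68 and -5.35, and the 3 at 1000-fold coverage had -4.69, -4.73 and -4.74. In the 100-fold screen 14 promoters had, among their 3 strongest guides, one with no count in any Tf sample. With counts below 3 set to 3 the 100-fold median was -4.87. The order of the groups differed between the screens. At 100-fold coverage the medians were -7.13 for LSM, -7.05 for Prp19, -6.43 for Sm and -6.32 for the tri-snRNP, then -4.86 for U2, -3.66 for U1, -3.37 for U11/U12 and -2.76 for U2AF. SNRPD1, the gene of SmD1, had the lowest member score there, -8.38.

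Depletion could already be seen at T0 in the dasatinib screens. The members' guides together stood at 49.9% and 51.1% of their plasmid CPM in the LGR T0 samples and at 52.5% and 50.8% in the legacy T0 samples. In the survival screens T0 stood at 88.9% (1000-fold) and at 86.5% and 89.0% (100-fold). By the paper's methods puromycin selection was shorter in the survival screens, so these kinds of T0 may differ in time since infection. Of 50 promoters, 25 were called lower in LGR T0 over plasmid (2.32% of all) and 27 in legacy T0 over plasmid (2.2% of all), with 142 of 248 (3.28% of all) and 141 of 248 guides (2.79% of all) lower. In the survival T0 samples 3 promoters (0.108% of all) and 7 guides (0.862% of all) were lower. No member was higher in these comparisons, beside 0.0982% of promoters and 0.141% of guides in LGR T0, 0.0883% and 0.745% in legacy T0 and 0.00491% and 0.0369% in the survival T0 samples. The LGR plasmid was read on a HiSeq and its T0 samples on a NextSeq, so that instrument and stage cannot be told apart in LGR. Between the 2 libraries the reverse primers differed as well. The T0 over plasmid comparisons of LGR share 1 plasmid sample.

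The groups differed in how much was gone by T0. Median scores of T0 over plasmid in LGR and in legacy were -3.65 and -3.18 for Prp19, -3.07 and -3.08 for the tri-snRNP, -2.97 and -2.62 for Sm and -2.93 and -2.47 for U2. They were -2.35 and -2.01 for U2AF, -2.02 and -2.11 for LSM, -1.07 and -0.92 for U1 and -0.78 and -0.55 for U11/U12. SF3A2 at its first promoter had 1.76 and 1.56 CPM in LGR T0, against 39.8 CPM in its plasmid, and 2.48 and 1.07 CPM in legacy T0, against 31.6 CPM in its plasmid. Its scores of -5.77 ± 0.39 in LGR and -5.20 ± 1.49 in legacy (SD, n = 2 each) were the lowest of the members in both. CRNKL1, a scaffold protein of the Prp19 complex, followed at -5.16 ± 0.46 and -5.10 ± 0.77, with SF3B4 at -5.16 ± 0.88 in LGR and CDC5L, another Prp19 complex scaffold, at -4.50 ± 0.48 in legacy. At the other end, the highest LGR scores were those of the second promoter of SF3A2 (0.40 ± 0.07), SNRNP40 (-0.03 ± 0.19) and the second promoter of SF3A1 (-0.13 ± 0.05). In legacy the second promoters of SF3A1 (0.40), SF3A2 (0.32) and LSM5 (0.05 ± 0.09) were highest. In the survival T0 samples LSM6 (-0.80 ± 0.03), SF3B2 (-0.93 ± 0.19) and SF3A2 at its first promoter (-1.15 ± 0.24, SD, n = 3 each) were the 3 called lower.

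**Figure D2:**
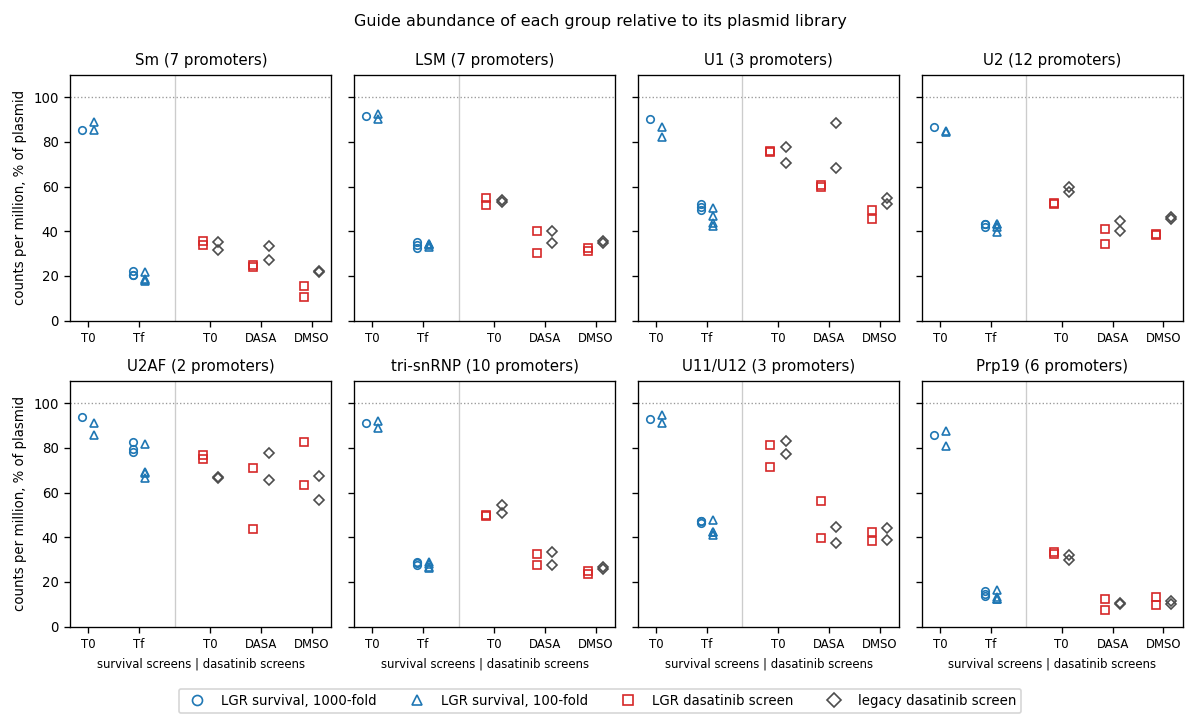
Summed CPM of each group's guides as a percentage of the plasmid library (dotted line, 100%), for the survival screens (T0, Tf) and the dasatinib screens (T0, then dasatinib, DASA, and DMSO); each symbol is 1 sample. At T0 of the dasatinib screens Prp19 stood at 30.0% to 33.6% and U11/U12 at 71.4% to 83.1%.

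Between T0 and the DMSO samples of the dasatinib screens guides against many members became rarer again. In LGR 23 of 46 scored promoters (6.17% of all) and 109 of 229 tested guides (7.42% of all) were lower, and in legacy 21 of 48 promoters (5.62% of all) and 94 of 233 guides (6.88% of all). No member was higher in either library, beside 0.0836% of promoters and 0.535% of guides in LGR and 0.113% and 0.62% in legacy. Promoters not scored had under 50 counts in both arms for every guide, so these counts do not cover all members. Of the member guides scored, 78 of 143 in LGR and 56 of 137 in legacy passed that minimum only at T0, which favours lower scores. The median score was -2.32 in LGR and -1.57 in legacy, against -0.10 and -0.12 for all promoters. Summed without any filter, 40 of 50 promoters in LGR and 43 in legacy had less CPM in both DMSO samples than in both T0 samples, beside 22.7% and 22.6% of all promoters.

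The order of the groups was not that of T0 over plasmid. The U11/U12 proteins, with the least loss by T0, had medians of -3.07 in LGR and -2.78 in legacy for DMSO over T0. Guides under 50 counts in both arms, such as those already rare at T0, do not enter these scores. Over all guides tested with edgeR, the median log2 changes in LGR were -3.69 for LSM, -3.17 for Sm and -2.73 for U11/U12. In legacy they were -2.07, -2.48 and -2.53. SNRNP48 had 11.7 and 11.4 CPM in the LGR DMSO samples, against 30.3 and 34.6 CPM in LGR T0, and 24.3 and 15.7 CPM in the legacy DMSO samples, against 59.5 and 53.0 CPM in legacy T0. It was called lower in both, at -3.51 ± 0.57 and -2.92 ± 0.34 (SD, n = 2 each). U2, with a large loss by T0, had medians of -1.98 and -0.89. LSM2 had 0.843 and 2.61 CPM in LGR DMSO samples, against 27.6 and 24.7 CPM in LGR T0, and 4.93 and 3.95 CPM in legacy DMSO samples, against 27.4 and 25.1 CPM in legacy T0. It was called lower in both, at -4.39 ± 1.48 and -2.69 ± 0.71 (SD, n = 2 each). CRNKL1 had scores of 0.01 and -0.17, from the guides that still had 50 counts. These comparisons share the T0 samples with T0 over plasmid, so a low T0 value enters both with opposite sign. Over the 4 growth comparisons (both survival screens and DMSO over T0 in both libraries), 13 member promoters were lower in all 4, beside 3.44% of all promoters, and 7 in none, beside 89.9% of all. The 7 were the second promoters of LSM5, SF3A1 and SF3A2, and SNRNP25, SNRPA, SNRPD2 and U2AF2.

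The libraries differed for 1 member guide. In the edgeR contrast of DMSO over T0, LGR minus legacy, 1 of 243 member guides was lower, beside 0.0796% of all guides, and none was higher, beside 0.0641%. It was the SNRNP70 guide at hg19 position 49588729 on chromosome 19, with 2 and 0 counts in LGR DMSO, against 125 and 122 in LGR T0, and 28 and 48 counts in legacy DMSO, against 104 and 113 in legacy T0. The difference was -5.23 ± 0.92 on the log2 scale (SE, adjusted p = 0.0160). At an unadjusted p under 0.05, 33 member guides were lower and 17 higher, and the share of all guides at that threshold was not taken.

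Across the titration, members were below all promoters in each sample. In LGR the median log2 T0 over plasmid of the members was -1.18 and -1.24 at 10-fold coverage, -0.40 and -0.31 at 50-fold, -0.47 and -0.44 at 100-fold and -0.39 and -0.41 at 200-fold. In legacy it was -0.27 and -0.38, -0.48 and -0.44, -0.49 and -0.44, and -0.69 and -0.71 over the same steps. The LGR samples at 10-fold coverage stood apart from the other LGR samples, and the legacy samples at 200-fold were the lowest of that library. At 10-fold coverage 11 and 14 member guides in LGR and 6 and 11 in legacy had no count, and at every higher coverage none did. That was 4.44% and 5.65% of the members in LGR, against 0.454% and 0.329% of all guides, and 2.42% and 4.44% in legacy, against 6.24% and 4.82% of all. No test was run on the titration.

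**Figure D3:**
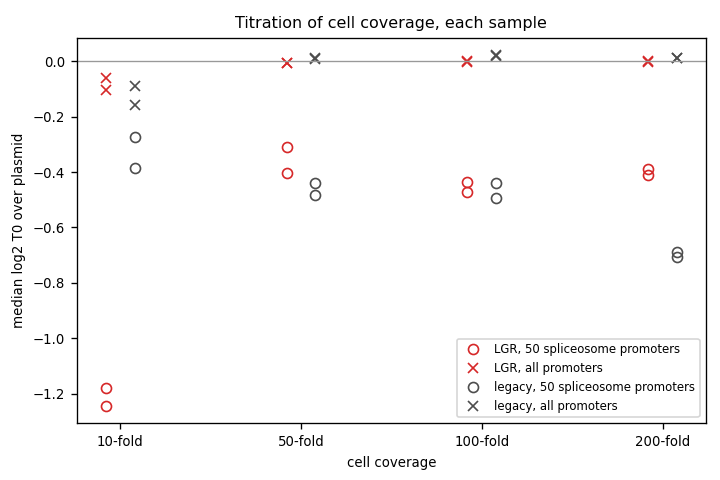
Median log2 T0 over plasmid in each titration sample against cell coverage, for the 50 snRNP promoters (circles) and all promoters (crosses) in LGR and legacy. Members lie below the crosses throughout, by most in LGR at 10-fold coverage (-1.18 and -1.24).

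Dasatinib blocks ABL and SRC-family kinases, and K562 cells depend on the BCR-ABL fusion kinase. Against DMSO, dasatinib-treated cultures had no member promoter called lower and 1 called higher in each library, of 37 scored in LGR (0.631% of all higher, 0.383% lower) and 40 in legacy (0.645% of all higher, 0.462% lower). None of 176 member guides in LGR and none of 169 in legacy passed edgeR's test, beside 0.0954% and 0.572% of all guides called higher and 0.00393% and 0.0349% called lower. At an unadjusted p under 0.05, 23 were higher and 6 lower in LGR (7.4% and 4.6% of all guides), and 16 higher and 8 lower in legacy (8.24% and 4.54% of all). DESeq2 called 7 higher in LGR (1.71% of all) and 6 in legacy (2.04% of all), and none lower. These tests cover only guides that still had counts, and the count minimum favours higher scores for members, since 20 of the 85 member guides scored in LGR passed it only with dasatinib and 7 only with DMSO (13 and 9 of 94 in legacy). With the minimum set on the T0 samples, a setting chosen after seeing the data, 3 promoters of 46 in LGR were higher (1.03% of all) and 2 of 48 in legacy (1.12% of all), and none was lower. They were PRPF6 (2.04), SNRNP70 (2.06) and SNRPC (1.59) in LGR, and PRPF8 (1.83) and LSM2 (1.56) in legacy, so no promoter was called in both. The median member score was then 0.65 in LGR and 0.14 in legacy. The promoters left without a score were 13 in LGR and 10 in legacy, among them SNRPF, LSM7, SF3A2 at its first promoter, SF3B4, PRPF4, PRPF19 and PLRG1 in both.

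Without a filter, the members' guides held 0.0741% and 0.0727% of counts in LGR dasatinib samples, against 0.0664% and 0.0660% in DMSO, and 0.0934% and 0.0903% in legacy dasatinib samples, against 0.0828% and 0.0836% in DMSO. The samples did not overlap in either library, and the smallest p that an exact permutation test of 2 against 2 samples can give is 0.333. Per promoter, 19 of 50 in LGR and 17 in legacy had more CPM in both dasatinib samples than in both DMSO samples, beside 18.9% and 19.1% of all promoters, and 8 in each had less, beside 29.3% and 30.0%. Scaling matters here. With TMM scaling the median log2 change of all tested guides was 0.03 in LGR and 0.02 in legacy, and with scaling by total counts it was -0.12 and -0.11. The member guides tested had 0.47 and 0.26 with TMM, and 0.32 and 0.13 with total counts. DMSO samples are shared with DMSO over T0, so the same low DMSO counts enter both.

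By group, Sm guides stood at 25.03% and 23.8% of plasmid CPM in LGR dasatinib samples, against 15.7% and 10.6% in DMSO, and at 33.2% and 27.2% in legacy dasatinib samples, against 21.7% and 22.04% in DMSO. SNRPG, the gene of SmG, had 77.0 and 51.0 CPM in legacy dasatinib samples, against 31.7 and 32.1 CPM in DMSO, and 24.1 and 7.52 CPM in LGR dasatinib samples, against 8.37 and 5.50 CPM in DMSO, where the samples overlap. The other 6 Sm promoters summed to 48.9 and 52.0 CPM in legacy dasatinib samples, against 50.6 and 51.4 CPM in DMSO, which overlap, and to 47.4 and 60.6 CPM in LGR dasatinib samples, against 36.6 and 24.9 CPM in DMSO. U1 guides stood at 60.5% and 59.97% in LGR dasatinib samples, against 49.7% and 45.6% in DMSO, and at 88.6% and 68.2% in legacy dasatinib samples, against 55.1% and 52.3% in DMSO. Tri-snRNP guides stood at 32.7% and 27.8% in LGR dasatinib samples, against 23.5% and 25.1% in DMSO, and at 27.7% and 33.5% in legacy dasatinib samples, against 26.0% and 26.7% in DMSO. For the summed guides of these 3 groups every dasatinib sample was above every DMSO sample of its library. In legacy this rested on 1 promoter for Sm and for the tri-snRNP, whose samples overlapped once SNRPG or PRPF8 was left out. In U1, SNRPA went the other way in LGR, with 21.9 and 18.05 CPM with dasatinib, against 30.35 and 29.75 CPM with DMSO. In legacy SNRPA overlapped, with 76.8 and 29.6 CPM with dasatinib, against 38.7 and 37.2 CPM with DMSO. LSM guides overlapped, with 30.4% and 40.03% in LGR dasatinib samples, against 31.2% and 32.6% in DMSO, and 40.3% and 34.6% in legacy dasatinib samples, against 34.6% and 35.5% in DMSO. U2AF and U11/U12 guides overlapped in both libraries. Prp19 guides overlapped, with 12.4% and 7.32% in LGR dasatinib samples, against 13.3% and 9.59% in DMSO, and 10.7% and 10.3% in legacy dasatinib samples, against 10.4% and 11.4% in DMSO. U2 guides overlapped in LGR (34.5% and 40.9% with dasatinib, 38.5% and 38.8% with DMSO) and were lower in legacy (40.0% and 44.4% with dasatinib, 46.4% and 45.6% with DMSO). In legacy SNRPB2 had 10.99 and 10.28 CPM with dasatinib, against 22.17 and 19.64 CPM with DMSO. Once SNRPB2 was left out, the legacy U2 samples overlapped. The U2 sums also include the second promoters of SF3A1 (52.6 and 48.2 CPM in legacy DMSO) and SF3A2 (90.8 and 89.1 CPM).

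**Figure D4:**
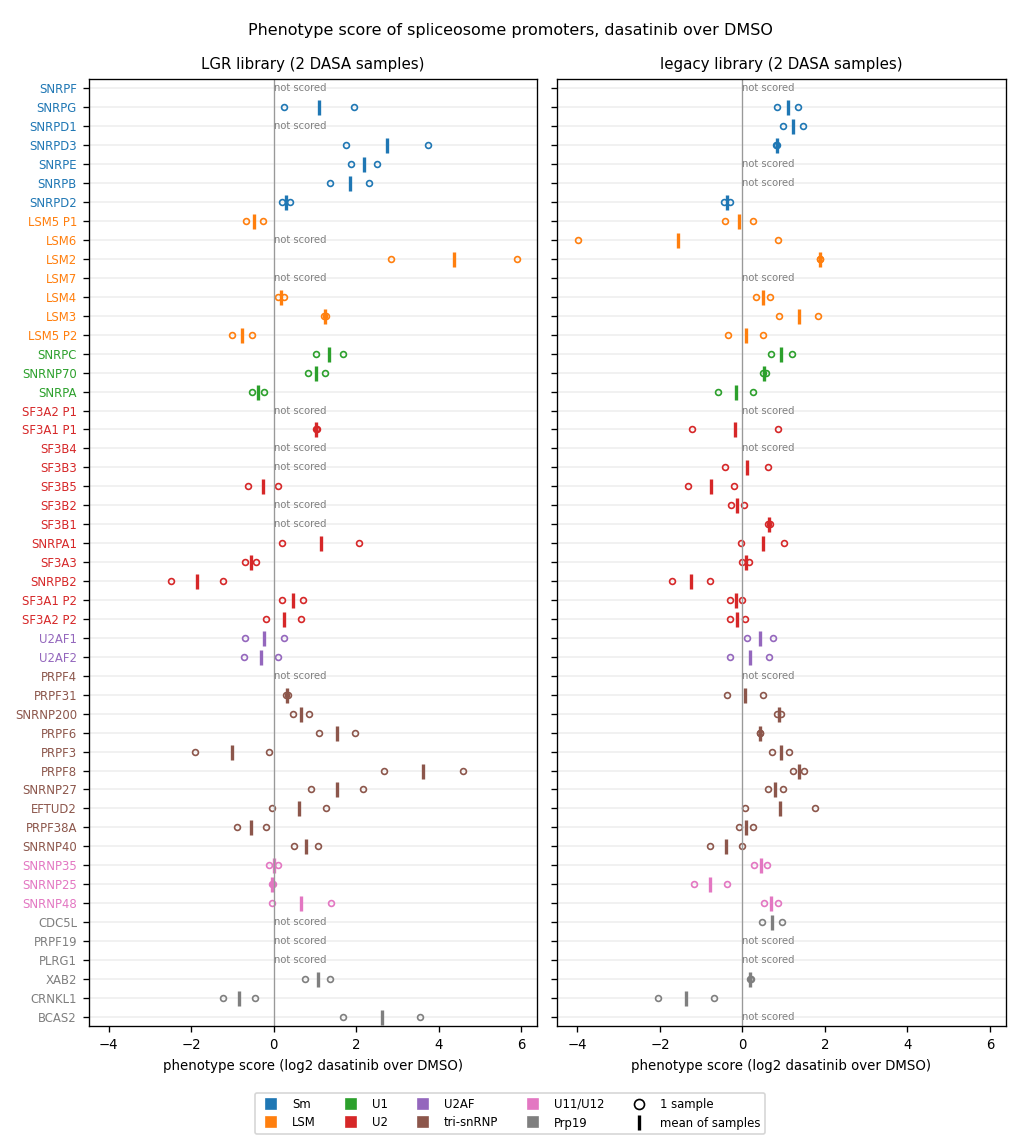
Phenotype score (log2 dasatinib over DMSO) of each promoter in LGR (left) and legacy (right), in the order of the survival plot; circles are the 2 dasatinib samples and bars their mean. LSM2 is highest in both panels (4.36 and 1.88), and 13 and 10 promoters have no score.

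LSM2 was the promoter called higher in both libraries. Its guides had 6.92 and 28.5 CPM in LGR dasatinib samples, against 0.843 and 2.61 CPM in DMSO, and 10.8 and 11.3 CPM in legacy dasatinib samples, against 4.93 and 3.95 CPM in DMSO. Its scores were 2.84 and 5.88 in LGR (adjusted p = 0.000651, exact Mann-Whitney test) and 1.88 and 1.88 in legacy (adjusted p = 0.0372), each from 2 guides. These guides passed the minimum of 50 counts only with dasatinib, with means of 116.5 and 132.5 counts, against 18.5 and 0.5 with DMSO, in LGR, and of 92 and 63 counts, against 20.5 and 27.5, in legacy, so the choice of guides favoured a higher score. With the minimum set on T0 the LGR score was 1.21 and not called (adjusted p = 0.891), and the legacy score was 1.56 (adjusted p = 0.0111), each from 3 guides. The summed CPM did not overlap within either library. The guide at hg19 position 31774578 on chromosome 6 had 11 and 254 counts in LGR dasatinib samples, against 0 and 1 in DMSO, and 6 and 0 in legacy dasatinib samples, against 0 and 3 in DMSO. The guide at 31774283 had higher counts in every dasatinib sample, with 60 and 173 counts in LGR, against 12 and 25 in DMSO, and 77 and 107 in legacy, against 25 and 16 in DMSO. So did the guide at 31774740, with 40 and 34 counts in LGR dasatinib samples, against 2 and 7 in DMSO, and 67 and 59 in legacy dasatinib samples, against 43 and 12 in DMSO. Without dasatinib sample 2 the LGR call was lost (score 1.96, adjusted p = 0.536). In legacy it was lost without dasatinib sample 1 (adjusted p = 0.194), dasatinib sample 2 (0.115) or DMSO sample 2 (0.348), and with guides of 10 or more counts kept (score 0.36, adjusted p = 0.658). With edgeR on counts summed per promoter LSM2 had 3.41 ± 0.77 in LGR (SE, adjusted p = 0.120) and 1.37 ± 0.34 in legacy (adjusted p = 0.0811).

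**Figure D5:**
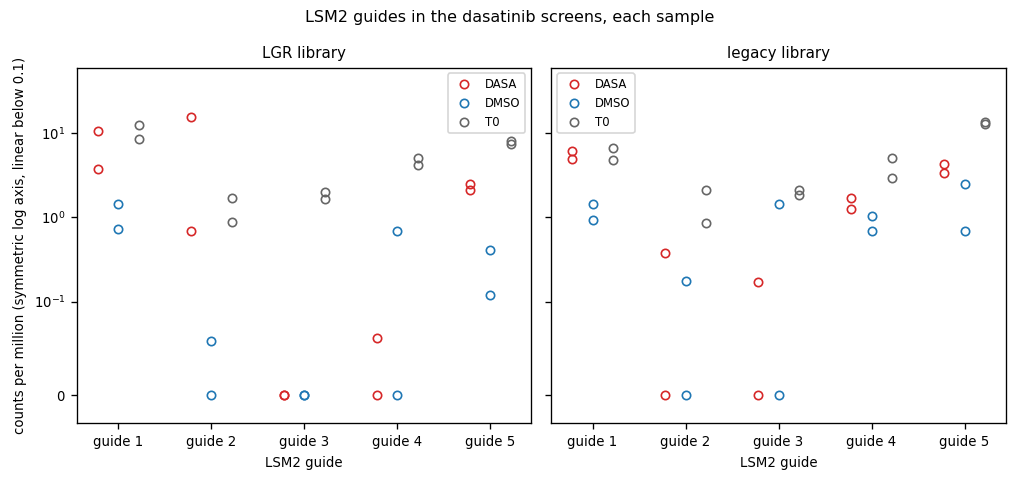
CPM of the 5 LSM2 guides, numbered by hg19 position, in each dasatinib (DASA), DMSO and T0 sample of LGR (left) and legacy (right), on a symmetric log axis that is linear below 0.1. Guides 1 and 5 (31774283 and 31774740) lie above DMSO in every dasatinib sample of both libraries, and guide 2 (31774578) reaches 254 counts in 1 LGR dasatinib sample.

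The next highest scores rested on few guides. PRPF8 had 4.42 and 11.8 CPM in LGR dasatinib samples, against 1.45 and 3.47 CPM in DMSO, and 12.8 and 11.3 CPM in legacy dasatinib samples, against 4.12 and 5.52 CPM in DMSO. Its scores were 3.63 ± 1.34 in LGR (adjusted p = 0.0788, exact Mann-Whitney test) and 1.36 ± 0.20 in legacy (adjusted p = 0.488; SD, n = 2 each), from 1 guide each. In LGR that guide passed the minimum only with dasatinib (82 counts on average, against 6.5 with DMSO). With guides of 10 or more counts kept, PRPF8 was called higher in legacy (1.84, adjusted p = 0.00190). SNRPD3, the gene of SmD3, had 2.73 ± 1.40 in LGR (1 guide) and 0.83 ± 0.02 in legacy (2 guides), and neither passed. The LGR guide passed the minimum only with dasatinib (95.5 counts on average, against 14 with DMSO). With guides of 10 or more counts kept, SNRPD3 was called in LGR (1.93, adjusted p = 0.0254, exact Mann-Whitney test). Under that setting its legacy score was -1.88 and not called (adjusted p = 0.858). With the minimum set on T0 its LGR score was 1.79 and not called (adjusted p = 0.257). LSM3 had 1.24 ± 0.02 and 1.36 ± 0.65 and was not called. Its guide at hg19 position 14220381 on chromosome 3 had 111 and 181 counts in LGR dasatinib samples, against 42 and 15 in DMSO, and 85 and 134 in legacy dasatinib samples, against 9 and 25 in DMSO. This guide thus passed the minimum of 50 counts only with dasatinib in both libraries, which favours a higher score.

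SNRPB2 lay at the other end. It had 17.01 and 13.1 CPM in LGR dasatinib samples, against 21.9 and 30.7 CPM in DMSO, and 10.99 and 10.3 CPM in legacy dasatinib samples, against 22.2 and 19.6 CPM in DMSO. Its scores of -1.86 ± 0.89 and -1.25 ± 0.66 (SD, n = 2 each) did not pass (adjusted p = 0.632 and 0.338, exact Mann-Whitney test). In legacy it was called lower with guides of 10 or more counts kept (-2.06, adjusted p = 0.0334). CRNKL1 scored -0.85 ± 0.55 and -1.36 ± 0.96, each from the single guide that was not lower in the survival screen. PRPF3 in LGR had -0.11 and -1.90, and LSM6 in legacy had 0.86 and -4.00, so that neither score exceeded its spread. With guides of 10 or more counts kept, LSM6 was called lower in legacy (-2.53, adjusted p = 0.0340). In the edgeR contrast of dasatinib over DMSO, LGR minus legacy, none of 200 member guides was called, beside 0.00195% of all guides lower and 0.000977% higher. At an unadjusted p under 0.05, 7 member guides were lower and 11 higher, and the share of all guides at that threshold was not taken.

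A wider list of 53 other spliceosome genes (58 promoters) holds helicases, step factors and regulators outside the snRNP cores. At 1000-fold coverage 34 of its promoters were lower (7.19% of all) and 1 higher (0.118% of all), with a median score of -2.14. The list had 37 lower at 100-fold coverage (6.6% of all), 23 of 57 in LGR DMSO over T0 (6.17% of all) and 17 of 54 in legacy (5.62% of all). In T0 over plasmid of the dasatinib screens 13 were lower in LGR (2.32% of all) and 16 in legacy (2.2% of all). With dasatinib 3 were higher and none lower in each library, of 51 scored in LGR (0.631% of all higher, 0.383% lower) and 50 in legacy (0.645% of all higher, 0.462% lower). Guides under the name NAA38, an older synonym of LSM8, lie at hg19 positions 117824200 to 117824652, larger than any gene end that RefSeq lists on chromosome 17, where the gene now called NAA38 lies, while LSM8 lies on chromosome 7. They scored -5.14 ± 0.34 at 1000-fold coverage (SD, n = 3, adjusted p = 0.0832 by the exact Mann-Whitney test), and they are not counted among the members.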

How the data were processed

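Guide counts from 40 K562 and plasmid samples were used. The deposited values are raw guide read counts, for which the authors ran a version of ScreenProcessing on bcl2fastq output, matching reads to the library's guide list. The submitters' processing notes name hg19, and no tool versions are stated. The LGR plasmid was the HiSeq sample titled CRISPRi, whose characteristics label says CRISPRa but whose guide names match the CRISPRi library. Files of other pools, and the NextSeq LGR plasmid file, which has no guide names, were not used. Samples were grouped by title. Total counts per sample ran between 15739255 and 170431221.

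Guides that reached 10 counts in any sample of a comparison entered edgeR 4.0.16 (TMM scaling, quasi-likelihood test) in R 4.3.3, and p-values were adjusted by Benjamini-Hochberg over all guides at 0.05. For scores, computed in Python 3.11.15 with NumPy 2.4.6, pandas 2.3.3 and SciPy 1.17.1, counts below 1 were set to 1, guides needed a mean of 50 counts in either arm, and scores were not divided by doublings. The scripts were tested on simulated data. Alternatives were DESeq2 1.42.0, other scalings and filters, counts summed per promoter, all guides averaged, a replicate block, T0 samples in the fit and leaving out each replicate. A count floor of 3, a count minimum set on T0 samples, and a fit without Tf samples 3 and 4 of the 100-fold screen, were chosen after seeing the data.

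The members and gene lists were chosen with earlier results of these data known. Values are given for the lowest and highest member of each group at 1000-fold coverage, for members called with dasatinib, for the 3 lowest and 3 highest with dasatinib and at T0 of the dasatinib screens, and for members called in no growth comparison. Other members were named after their values were seen, to fill out the groups.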

Additional observations from a re-analysis of the deposited data

Results flagged for a closer look

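Of 50 promoters checked over the 4 Tf samples of the 100-fold screen, 2 had 1 sample far from the others, and chance alone marks about 1 group in 20. SF3B1 scored -6.98 in Tf sample 3, with the other samples between -3.69 and -3.47. SNRPD1 scored -7.61 in Tf sample 1, with the other samples between -8.66 and -8.59.

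The change of the SNRNP70 guide at hg19 position 49588729 between DMSO and T0 differed between the libraries, at -5.23 ± 0.92 for LGR minus legacy (log2, SE, adjusted p = 0.0160 by edgeR).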

How the results depend on the processing

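No median member score given in this section changed sign, but scores of single promoters did in legacy dasatinib over DMSO. With guides of 10 or more counts kept, SNRPD3 went from 0.83 to -1.88 and PRPF6 from 0.42 to -1.01, neither called. Without dasatinib sample 2, LSM6 went from -1.57 to 0.85. Calls in this section are given for members only, without the share of the whole library under the same setting. They therefore do not tell a change of the members from a change of the library. For DESeq2 and the T0 minimum with dasatinib, that share is given in the Results. The member guide counts of all 9 comparisons stayed within 1.5 times without a filter on low counts, with total-count scaling and with scaling to the non-targeting guides. With all guides of a promoter averaged, the median member score was -3.61 (1000-fold), -4.14 (100-fold), -2.27 and -1.47 (DMSO over T0, LGR and legacy), -0.147 (survival T0 over plasmid) and -1.73 and -1.74 (dasatinib-screen T0 over plasmid, LGR and legacy). Without subtracting the non-targeting median it was -4.69 (1000-fold), -2.26 and -1.50 (DMSO over T0, LGR and legacy) and 0.415 and 0.160 (dasatinib over DMSO, LGR and legacy). With a count floor of 3, chosen after seeing the data, the 100-fold median was -4.87.

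With edgeR on counts summed per promoter, 36 and 35 promoters were called in DMSO over T0 (LGR and legacy), 0 in LGR dasatinib over DMSO, 8 in survival T0 over plasmid and 39 and 41 in dasatinib-screen T0 over plasmid (LGR and legacy). With guides of 10 or more counts kept, 32 were called in legacy DMSO over T0, and 5 in LGR (all higher) and 4 in legacy (2 higher and 2 lower) dasatinib over DMSO. With the minimum of 50 counts set on T0, chosen after seeing the data, 3 were called in LGR and 2 in legacy dasatinib over DMSO, and the legacy median was 0.141. For member guides in dasatinib over DMSO, DESeq2 called 7 in LGR and 6 in legacy, and with T0 samples in the fit edgeR called 1 and 6. The cause was not tested.

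Replicate numbers did not pair the samples, since deviations of same-numbered samples did not correlate. The replicate block called 6 member guides in LGR and 5 in legacy dasatinib over DMSO, and 177 in the 100-fold survival screen, where the same samples without a block gave 176.

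Leaving out 1 sample at a time, member guides called were 188 to 189 (1000-fold), 99 to 176 (100-fold), 30 to 127 and 35 to 109 (DMSO over T0, LGR and legacy), 0 to 35 and 0 to 29 (dasatinib over DMSO, LGR and legacy), 4 to 7 (survival T0 over plasmid) and 129 to 132 (LGR dasatinib-screen T0 over plasmid). Legacy T0 over plasmid has no such guide fit. Promoters called were 37 to 40, 37 to 39, 22 to 24, 18 to 21, 1 to 2, 0 to 2, 2 to 4, 23 to 25 and 24 to 26 over the 9 comparisons in the order 1000-fold, 100-fold, DMSO over T0, dasatinib over DMSO, survival T0 and dasatinib-screen T0 over plasmid, LGR before legacy. The 100-fold guide count was 104 without T0 sample 1 and 99 without T0 sample 2. DMSO over T0 had 33 and 30 without LGR T0 A and B, and 35 and 51 without legacy T0 A and B. Dasatinib over DMSO had 35, 28 and 1 without LGR dasatinib sample 1, dasatinib sample 2 and DMSO sample 2, and 29 and 20 without legacy dasatinib samples 1 and 2. Survival T0 over plasmid had 4 without either 100-fold T0 sample. An arm left with 1 sample is assumed to vary like the other. Guides rare in both arms could not show a change at this depth.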
